A study of Mus musculus with 2 samples.

Results

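The 8 genes described encode proteins of the sarcomere or its junctions in the mouse heart: the titin-like kinase gene Speg, the cytoskeletal adaptor gene Obsl1, the myomesin genes Myom1, Myom2 and Myom3, the cardiac myosin-binding protein C gene Mybpc3, and the nebulin-family genes Nebl and Neb. They were chosen as a list of symbols, each matched to 1 gene identifier of the GENCODE M21 annotation, and are 8 of 55536 annotated genes. Both libraries came from heart tissue of female mice of strain B6CASTF1/J at 10 days of age, bought from The Jackson Laboratory. By its name, the strain crosses C57BL/6J with CAST/EiJ, and the animals are of the F1 generation. There was 1 group of 2 animals with 1 library each, called replicates 1 and 2 below, which are labelled as separate biological replicates under a single donor record, and no treatment, second age or second tissue. Each library was made from 300 ng of total RNA with reduced ribosomal RNA and held 40403041 and 39849597 expected counts. Of the 40184480 and 39620519 on annotated genes, the 8 genes took 0.639% and 0.628%.

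Sarcomeres are the repeating units of striated muscle, in which thick filaments of myosin slide past thin filaments of actin. The M-band crosses the middle of the sarcomere and ties thick filaments to each other and to titin, and myomesins are its cross-linkers. Myosin-binding protein C sits on the thick filament to either side and tunes the interaction of myosin with actin. Nebulin runs along the thin filament in skeletal muscle, while the shorter nebulette sits at the Z-disc end of the thin filament in heart muscle. SPEG is a kinase related to titin that is found near the junctions where calcium is released, and OBSL1 binds titin and myomesin at the M-band.

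Values are in TPM, the abundance of a transcript corrected for its length and scaled to a fixed total per library, and are given as replicate 1 and replicate 2 and then as mean ± SD over the 2 animals (n = 2). The authors deposited 2 quantifications of each library. One has the column headers that the program RSEM writes and gave the values below unless another source is named. The other has the headers that kallisto writes. The tissue label was read against marker genes: all 7 heart muscle markers were above 1 TPM in both libraries, and of 15 skeletal muscle markers 1 was, with a sum over the 15 of 5.72 and 8.21 TPM. The skeletal muscle marker that passed was Casq1, at 2.66 and 4.50 TPM. Myod1 and Pax7, which define the skeletal muscle lineage, were listed at 0 in both, the only 2 of the 15 that were. Since the libraries are of heart tissue and not of single cell types, fewer cells of a type and less RNA per cell cannot be told apart. Sets of atrial, red cell and fat markers differed between the 2 libraries. The summed level of 6 atrial markers was 521.9 and 966.1 TPM, that of 3 red cell genes was 3480 and 8489 TPM, and that of 4 fat genes was 63.2 and 9.83 TPM. The summed level of 4 ventricular markers was 13325 and 13185 TPM.

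Some of the differences between transcripts of these genes lie in short coding exons, which are shown here because the transcript levels below turn on them. Myom1 has a cassette exon of 294 nt, or 98 codons, exon 18 of the 38 exons of transcript Myom1-202, at chr17:71082203-71082496 (mm10, plus strand). It is the insertion known from the embryonic heart form of myomesin, EH-myomesin. Capitals mark the exon and lower case marks 3 bases of its neighbouring exons on each side.
Myom1 cassette exon: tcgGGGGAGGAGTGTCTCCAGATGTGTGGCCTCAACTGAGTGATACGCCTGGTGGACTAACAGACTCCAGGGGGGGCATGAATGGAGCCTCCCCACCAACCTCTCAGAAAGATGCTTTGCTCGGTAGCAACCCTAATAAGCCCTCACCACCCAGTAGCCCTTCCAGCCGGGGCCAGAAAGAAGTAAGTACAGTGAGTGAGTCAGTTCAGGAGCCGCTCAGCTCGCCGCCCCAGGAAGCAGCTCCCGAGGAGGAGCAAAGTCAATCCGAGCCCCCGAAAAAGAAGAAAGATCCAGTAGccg
Near the other end of the coding sequence, transcripts Myom1-201 and Myom1-203 each carry 1 of a pair of exons of 23 nt, at chr17:71120794-71120816 and chr17:71121126-71121148. Both are exon 35 of 37, and the cassette-bearing Myom1-202 carries the downstream one. Capitals mark the exon between 15 bases of each neighbour.
Myom1-201: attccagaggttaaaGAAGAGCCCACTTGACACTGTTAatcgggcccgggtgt
Myom1-203: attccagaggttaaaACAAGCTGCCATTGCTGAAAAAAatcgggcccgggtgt
The 3 annotated transcripts of Mybpc3 differ, among other places, in a pair of very short exons at chr2:91122340-91122342 and chr2:91122636-91122647 (plus strand). Mybpc3-203 carries 3 nt and then 12 nt, Mybpc3-201 carries 3 nt and then the last 9 nt of the second exon, and Mybpc3-202 carries the 12 nt alone. Mybpc3-202 also has an earlier exon that is shorter at its start, and its annotated coding sequence is 3339 nt against 3834 nt for Mybpc3-203. Capitals mark these bases in each.
Mybpc3-203: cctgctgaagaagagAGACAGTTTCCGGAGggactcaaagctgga
Mybpc3-201: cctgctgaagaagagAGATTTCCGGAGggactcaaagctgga
Mybpc3-202: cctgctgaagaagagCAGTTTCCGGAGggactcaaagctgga

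The promoters are shown because several of these genes were abundant in this tissue, and Speg and Nebl have more than 1 RefSeq start. RefSeq windows on GRCm38.p6 were matched for 6 of the 8 genes, 12 windows in all, each from 250 bases before to 50 bases after a start. Of these, 4 windows belong to Speg, and their starts coincide with those of Speg-201, Speg-205, Speg-211 and Speg-204. The 250 bases before 4 starts are printed 5′ to 3′ on the gene's strand, with a match to a MEF2 box or a CArG box in capitals. Each of the 4 holds a match, and the Nebl window that holds one is not printed. MEF2 and CArG boxes are the binding motifs of the MEF2 factors and of serum response factor, which act on many muscle genes.
Speg-201 start, chr1:75375047-75375296: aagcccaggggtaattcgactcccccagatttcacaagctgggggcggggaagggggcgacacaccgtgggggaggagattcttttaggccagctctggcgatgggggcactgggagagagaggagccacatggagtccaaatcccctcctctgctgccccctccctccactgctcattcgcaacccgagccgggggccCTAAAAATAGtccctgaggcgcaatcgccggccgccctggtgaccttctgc
Mybpc3 start, chr2:91117894-91118143: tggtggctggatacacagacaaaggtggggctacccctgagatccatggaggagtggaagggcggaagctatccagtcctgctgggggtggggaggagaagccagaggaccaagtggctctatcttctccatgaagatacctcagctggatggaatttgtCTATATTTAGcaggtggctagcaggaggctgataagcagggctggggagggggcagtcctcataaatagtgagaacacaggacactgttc
Myom3 start, chr4:135759465-135759714: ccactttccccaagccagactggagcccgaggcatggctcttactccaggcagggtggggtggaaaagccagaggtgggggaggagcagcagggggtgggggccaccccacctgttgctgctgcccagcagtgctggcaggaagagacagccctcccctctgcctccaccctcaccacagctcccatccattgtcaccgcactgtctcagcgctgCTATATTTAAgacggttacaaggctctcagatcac
Myom1 start, chr17:71019307-71019556: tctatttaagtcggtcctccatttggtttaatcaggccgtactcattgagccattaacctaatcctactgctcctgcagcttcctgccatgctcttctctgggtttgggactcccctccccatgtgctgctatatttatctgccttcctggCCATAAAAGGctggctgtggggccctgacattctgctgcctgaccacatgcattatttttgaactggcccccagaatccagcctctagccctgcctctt
The MEF2 box was found, on either strand, in 3 of the 12 windows, at position -51 before the Speg-201 start, -90 before the Mybpc3 start and -35 before the Myom3 start. Of 32851 RefSeq windows of the same length, 3.19% held it. The CArG box was found in 2 of the 12 windows, at -99 before the Myom1 start and at -162 before a Nebl start next to Nebl-207, against 1.63% of all windows. The letters TATAAA were in 0 of the 12 windows and in 13.6% of all. No base of a match was shared between motifs. These are matches of letters. Myom3, with a MEF2 box, was the lowest of the 8 genes, and Mybpc3, with one too, the highest.

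Of the 8 genes, 6 were above 1 TPM in both libraries and 2, Neb and Myom3, were below it. Neb passed this level on other scales, at a mean of 1.29 by the deposited posterior mean TPM and 2.06 with TPM rescaled over nuclear protein-coding genes. Among 22028 protein-coding genes ordered by mean TPM, Mybpc3 stood at place 46, Myom1 at 125, Myom2 at 172, Nebl at 342, Obsl1 at 942, Speg at 1561, Neb at 12059 and Myom3 at 13215. Over all protein-coding genes, 53.3% were above 1 TPM in both. Neighbours in this order were read as apart where their log2 ratio had the same sign in both libraries and a mean over 3 SD. By this rule Myom1 and Myom2 were not apart, nor were Myom2 and Nebl. Neb and Myom3 were apart in the RSEM-type tables and not in the kallisto-type tables. The plot of levels by gene and library shows the gap between the 6 genes and the lowest 2.

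**Figure D1:**
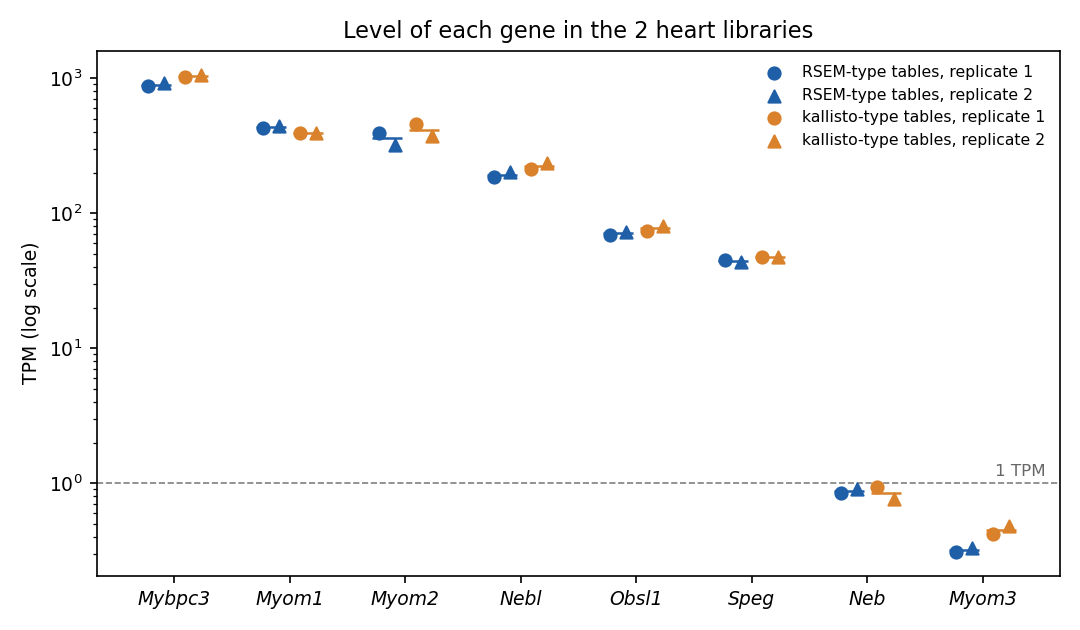
TPM (log axis) of each of the 8 genes in replicate 1 (circles) and replicate 2 (triangles), from the RSEM-type tables (blue) and the kallisto-type tables (orange), with a line at the mean. Mybpc3 lies highest, at 873.7 and 914.6 TPM in the first of these, and Neb and Myom3 lie under 1 TPM in both libraries by both quantifications.

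Mybpc3 was the most abundant of the 8 genes. It encodes the cardiac form of myosin-binding protein C, and variants in it are a common cause of inherited hypertrophic cardiomyopathy. Its level was 873.7 and 914.6 TPM (894 ± 29.0). The gene lies at chr2:91118144-91136516 on the plus strand. Mybpc3 exceeded Myom1 by a log2 ratio of 1.04 ± 0.0082, a 2.06-fold difference, and Myom2 by 1.33 ± 0.26, so both pairs were apart. One transcript, Mybpc3-203, held 98.6% and 98.8% of the gene's TPM, and 98.4% and 98.8% by the kallisto-type tables. Mybpc3-201 held 0.44% and 0.55%, and Mybpc3-202 held 0.95% and 0.63%; these 2 were named after their values were seen. The form with both short exons at full length, printed above, was thus nearly all of Mybpc3 RNA in both hearts.

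The other members of its family were far lower. Mybpc2, the fast skeletal form, was at 8.96 and 8.06 TPM, a mean log2 ratio to Mybpc3 of -6.70 ± 0.15. Mybpc1, the slow skeletal form, was at 0.06 and 0.12 TPM, with a log2 ratio of -12.22 ± 0.28 on the scale of TPM + 0.1, which understates such a difference. Mybphl, which encodes a related shorter protein of the atria, was at 7.30 and 12.29 TPM. Its counts, scaled by library size, were higher in replicate 2 by 0.76 on the log2 scale (adjusted p = 1.46e-10, exact binomial test between the 2 libraries), which was under the 2-fold required for a call. All 6 atrial markers were also higher in replicate 2 at an adjusted p under 0.05, with the sums given above, and their part in the Mybphl difference was not tested.

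Myom1 and Myom2 were both abundant and close to each other. Myom1 encodes myomesin, found in the M-band of every striated muscle, and Myom2 encodes M-protein, found in heart and fast skeletal muscle. Myom1, at chr17:71002633-71126856 on the plus strand, stood at 426.6 and 443.0 TPM (435 ± 11.6). Myom2, at chr8:15057653-15133541 on the plus strand, stood at 394.9 and 320.4 TPM (358 ± 52.6). Myom1 was thus the higher in both libraries, but the log2 ratio, 0.11 and 0.47 (0.29 ± 0.25), was not apart. By the kallisto-type tables the ratio was -0.23 and 0.08, and the mean changed sign. With full-length coding transcripts alone, defined as those whose coding sequence reaches 90% of the gene's longest, the levels were 276.9 and 281.8 TPM for Myom1 and 377.4 and 308.1 TPM for Myom2. On that basis Myom2 was the higher in both libraries, again not apart at -0.29 ± 0.22. The order of these 2 genes therefore cannot be given from these data.

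Both genes moved between the quantifications: the mean of Myom1 was 435 TPM in the RSEM-type and 391 TPM in the kallisto-type tables, and that of Myom2 was 358 and 414 TPM. Within Myom1 the transcripts differed in how far the quantifications gave the same share. Myom1-203, the full-length form of 37 exons and 5316 nt, led in both libraries by both quantifications, with 59.3% and 58.0% of the gene's TPM and 63.6% and 69.0% by the kallisto-type tables. The second in the RSEM-type tables was Myom1-208, an annotated noncoding transcript of 941 nt, of which 860 nt lie within exons of Myom1-203. It held 31.8% and 33.8% of the TPM but 7.07% and 7.67% of the counts, since TPM divides by length. The kallisto-type tables gave it 0.012% and 1.00%. The gene-level TPM of Myom1 in the RSEM-type tables thus includes a share that the kallisto-type tables did not give it.

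Most full-length Myom1 RNA lacked the cassette exon. Of the TPM of the 3 full-length transcripts, Myom1-202 with the exon held 8.65% in replicate 1 and 8.77% in replicate 2 (8.71% ± 0.083), from 4161 and 4207 counts. The kallisto-type tables gave 12.5% and 13.4% (13.0% ± 0.60). The 2 hearts differed less from each other than the 2 quantifications did. The pair of 23-nt exons gave no such agreement. Myom1-201, with the upstream exon, held 0.076% and 0% of full-length TPM in the RSEM-type tables, and 16.9% and 10.4% in the kallisto-type tables. The downstream exon was in the larger share by both, and the level of the upstream exon cannot be given.

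A further transcript, Myom1-209, starts upstream of the others and was at 0.07 and 0.10 TPM in the RSEM-type tables and 23.4 and 21.1 TPM in the kallisto-type tables. It overlaps 207 nt of exons of Myl12a, a gene on the opposite strand that encodes a regulatory light chain of non-muscle myosin and stood at 377.0 and 342.5 TPM. The full-length Myom1 transcripts share 0 nt with exons of Myl12a. Whether the counting used strand is not given in the sources used here, so the Myom1-209 value is uncertain.

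Myom2 was simpler. Myom2-201, its only coding transcript, held 95.6% and 96.2% of the gene's TPM. The retained-intron transcript Myom2-202 held 1.67% in both libraries, and 5.99% and 5.80% by the kallisto-type tables. Both transcripts were lower in replicate 2, at 377.4 and 308.1 TPM for Myom2-201 and 6.58 and 5.34 TPM for Myom2-202.

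Myom3 was near the limit of detection. It encodes the third myomesin, known from intermediate fibres of skeletal muscle, and lies at chr4:135759715-135815564 on the plus strand. Its level was 0.31 and 0.33 TPM (0.32 ± 0.014), from 26 and 29 rounded counts, with exact Poisson 95% intervals of 17.0 to 38.1 and 19.4 to 41.6 counts that cover counting error only. Its log2 ratio was -10.02 ± 0.010 to Myom1 and -9.73 ± 0.26 to Myom2. Most of even this small signal was assigned to a transcript annotated as a retained intron, Myom3-203, with 93.8% and 86.9% of the TPM. By the deposited posterior mean TPM its share was 73.0% and 75.1%. Of its 2551 nt, 2446 lie within exons of the full-length Myom3-201, and so few counts cannot place the signal on either transcript. The full-length Myom3-201 held 3.36 and 7.29 counts.

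Nebl was the leading gene of the nebulin family. It lies at chr2:17343909-17731464 on the minus strand and stood at 184.1 and 202.5 TPM (193 ± 13.1). Neb, at chr2:52136647-52378474 on the minus strand, encodes the giant nebulin of skeletal muscle. It stood at 0.84 and 0.91 TPM (0.875 ± 0.049), from 204 and 239 counts with Poisson intervals of 177 to 234 and 210 to 271. The log2 ratio of Neb to Nebl was -7.63 ± 0.024, or 198-fold lower on the scale of TPM + 0.1. The skeletal muscle markers were also at a low level, with 1 of 15 above 1 TPM in both libraries, and their part in the Neb counts was not tested. No Neb transcript led in both libraries by both quantifications. The longest, Neb-202 of 157 exons, held 13.5% and 27.7% of Neb TPM, and the short Neb-213 held 25.6% and 18.7%. By counts Neb-202 led in both libraries, with 39.1% and 72.2% against 5.71% and 3.76% for Neb-213, and by the kallisto-type TPM it led with 26.8% and 40.4%. The RSEM-type TPM of replicate 1 placed Neb-213 first. The posterior mean TPM of that library did too, with 13.6% against 7.76% for Neb-202.

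A pair of Nebl products with different starts was given separate levels. Nebulette, from Nebl-202, has 28 exons and a coding sequence of 3042 nt. LIM-nebulette, from Nebl-201, starts far upstream, has 7 exons and a coding sequence of 810 nt, and carries a LIM domain in place of most nebulin repeats. Nebl-202 stood at 51.7 and 54.7 TPM and Nebl-201 at 17.6 and 18.7 TPM. The log2 ratio of LIM-nebulette to nebulette was -1.54 and -1.55, or 2.92-fold lower. The kallisto-type tables placed it at -3.02 ± 0.0044, or 8.11-fold lower. The direction was thus the same in both libraries and by both quantifications, while its size was larger in the kallisto-type tables. Of the 5780 nt of Nebl-201, 5096 lie within exons of Nebl-202. Nebl-201 was given 3139 and 3254 counts in the RSEM-type tables and 1465 and 1522 in the kallisto-type tables, so the size of the ratio is uncertain. The RefSeq window nearest the LIM-nebulette start, 91 nt from that of Nebl-201, had a GC content of 72.0% and 32 CpG. The window 67 nt from the Nebl-207 start, at the nebulette end of the gene, had 37.7% and 1 CpG. The median of all windows was 7 CpG.

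Nebulette accounted for 28.1% and 27.0% of Nebl TPM but for 67.8% and 67.1% of its counts. Shorter transcripts took much of the rest of the TPM. Nebl-208, a noncoding transcript of 436 nt that starts inside the gene, held 26.3% and 24.9% of the TPM from 511 and 522 counts, or 2.68% and 2.61% of the counts. The kallisto-type tables gave it 27.9% and 30.0%. Nebl-210 and Nebl-206, which begin near the nebulette start and end early, held 18.1% and 20.8%, and 5.91% and 4.82%. The kallisto-type tables gave them 12.5% and 9.69%, and 9.23% and 12.0%, so their order changed in replicate 2. All 1426 nt of Nebl-210 lie within exons of Nebl-202, so its share is uncertain. The gene-level TPM of Nebl is therefore larger than the level of its full-length coding RNA.

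**Figure D2:**
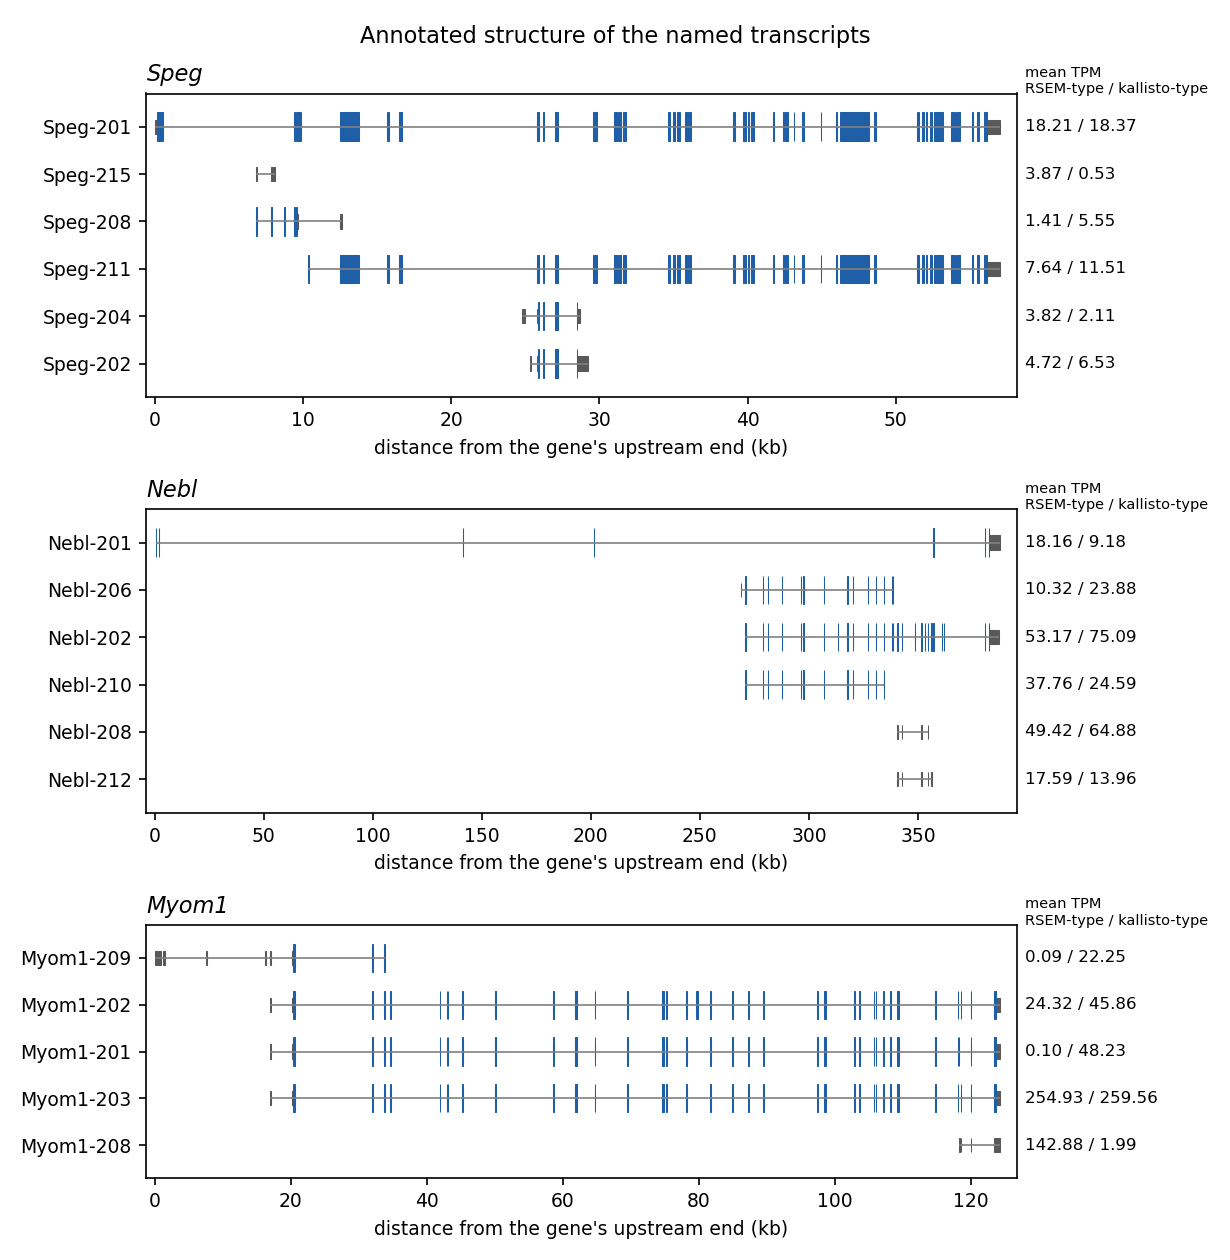
Annotated exons (grey) and coding parts (blue) of the named transcripts of Speg, Nebl and Myom1, drawn to scale as distance in kb from the upstream end of each gene, with the mean TPM of each by the RSEM-type and the kallisto-type tables at the right. Transcripts of different starts can be seen for Speg and Nebl, and Myom1-208 covers only the last part of Myom1, at 142.88 TPM in one quantification and 1.99 TPM in the other.

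The other nebulin-family genes were below Nebl. Nrap, which encodes an anchoring protein of assembling myofibrils, was at 131.0 and 118.4 TPM, a log2 ratio to Nebl of -0.63 ± 0.20 that was apart in the RSEM-type tables and not in the kallisto-type tables (-0.61 ± 0.22). Lasp1, which encodes a LIM and SH3 protein of the actin cytoskeleton, was at 30.8 and 32.0 TPM, with a log2 ratio to Nebl of -2.62 ± 0.058.

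Speg and Obsl1 lie on the same stretch of chromosome 1, next to Des, the gene of the muscle intermediate filament desmin. Speg spans chr1:75375297-75432320 on the plus strand and begins 6717 nt after the end of Des. Obsl1 spans chr1:75479310-75506452 on the minus strand and is 46989 nt beyond Speg. Obsl1 stood at 69.1 and 72.4 TPM (70.8 ± 2.35) and Speg at 45.3 and 43.1 TPM (44.2 ± 1.51). Obsl1 was higher by a log2 ratio of 0.68 ± 0.097, or 1.60-fold, and the pair was apart by both quantifications. With full-length coding transcripts alone the ratio was 0.24 ± 0.18 and no longer apart. Of the 7 protein-coding genes from Des to Obsl1, 5 were above 1 TPM in both libraries. Des stood at 369.4 and 399.4 TPM and was the highest of them, while Asic4, an ion channel gene between Speg and Obsl1, was at 0 in both.

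Speg is known for a long series of products, from the short APEG-1, described in smooth muscle, to the forms with kinase domains found in striated muscle. The 2 long coding transcripts were Speg-201 with 41 exons, at 16.9 and 19.6 TPM, and Speg-211 with 39 exons, at 9.08 and 6.20 TPM. Speg-201 led with 37.2% and 45.3% of the gene's TPM and 35.6% and 42.0% by the kallisto-type tables. Of the TPM of this pair Speg-201 held 65.0% in replicate 1 and 75.9% in replicate 2, and 55.8% and 67.2% by the kallisto-type tables. Of the 9885 nt of Speg-211, 9818 lie within exons of Speg-201, so this split is uncertain. The Speg-201 start is the one with the MEF2 box printed above, while the windows at the starts of Speg-211, Speg-205 and Speg-204 held no match to the motifs searched. Any part of the box in these levels was not tested.

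A set of 4 annotated Speg transcripts has a short coding sequence of 339 nt, and summed they were at 9.83 and 8.75 TPM. Their log2 ratio to the 2 long forms was -1.39 and -1.55 (-1.47 ± 0.11), or 2.77-fold lower, and -1.80 ± 0.32 by the kallisto-type tables. By counts the ratio was -4.93 ± 0.11, with 292.7 and 257.7 counts for the short forms against 8435 and 8289 for the long ones. Smooth muscle and pericyte markers, 6 of 6 above 1 TPM in both libraries, had a summed level of 533.7 and 560.4 TPM, and their part in the short forms was not tested.

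Obsl1-202, the full-length form of 20 exons with a coding sequence of 5412 nt, led with 40.5% and 45.8% of Obsl1 TPM and 67.6% and 73.5% of its counts. Transcripts annotated as retained introns together held 37.9% and 33.2% of the TPM, and 29.6% and 28.1% by the kallisto-type tables. Obsl1 had the largest retained-intron share of the 6 genes above 1 TPM, by either quantification. The number of annotated transcripts of this class differs between the genes, and the ranking does not correct for it. Such transcripts also share bases with coding ones: of the 2649 nt of Obsl1-207, 2271 lie within exons of Obsl1-202. In the RSEM-type tables the share in Speg was 11.0% and 11.2%, that in Myom1 was 3.21% and 2.54%, and that in Myom2 was 1.76% and 1.81%. The kallisto-type tables gave Speg 0.912% and 5.28%, Myom1 3.74% and 3.00%, and Myom2 5.99% and 5.80%. The order of Speg and Myom2 thus changed with the quantification. Nebl and Mybpc3 have no transcript of that class. In counts the Obsl1 share was 16.5% and 14.0%, because these transcripts are short. Tmem198, which overlaps Obsl1 on the opposite strand, had 14 and 13 counts, against 7236 and 7736 for Obsl1.

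Across the 8 genes there are 74 annotated transcripts, 36 of them protein-coding and 17 retained introns. A transcript led in both libraries by both quantifications for 7 of the 8 genes, and for Neb none did. In the plot of transcript shares the bars of Mybpc3 and Myom2 are almost of a single colour, while those of Speg, Obsl1 and Nebl are divided among many transcripts. In replicate 2 the share of the leading transcript ranged from 98.8% for Mybpc3 to 27.0% for Nebl.

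**Figure D3:**
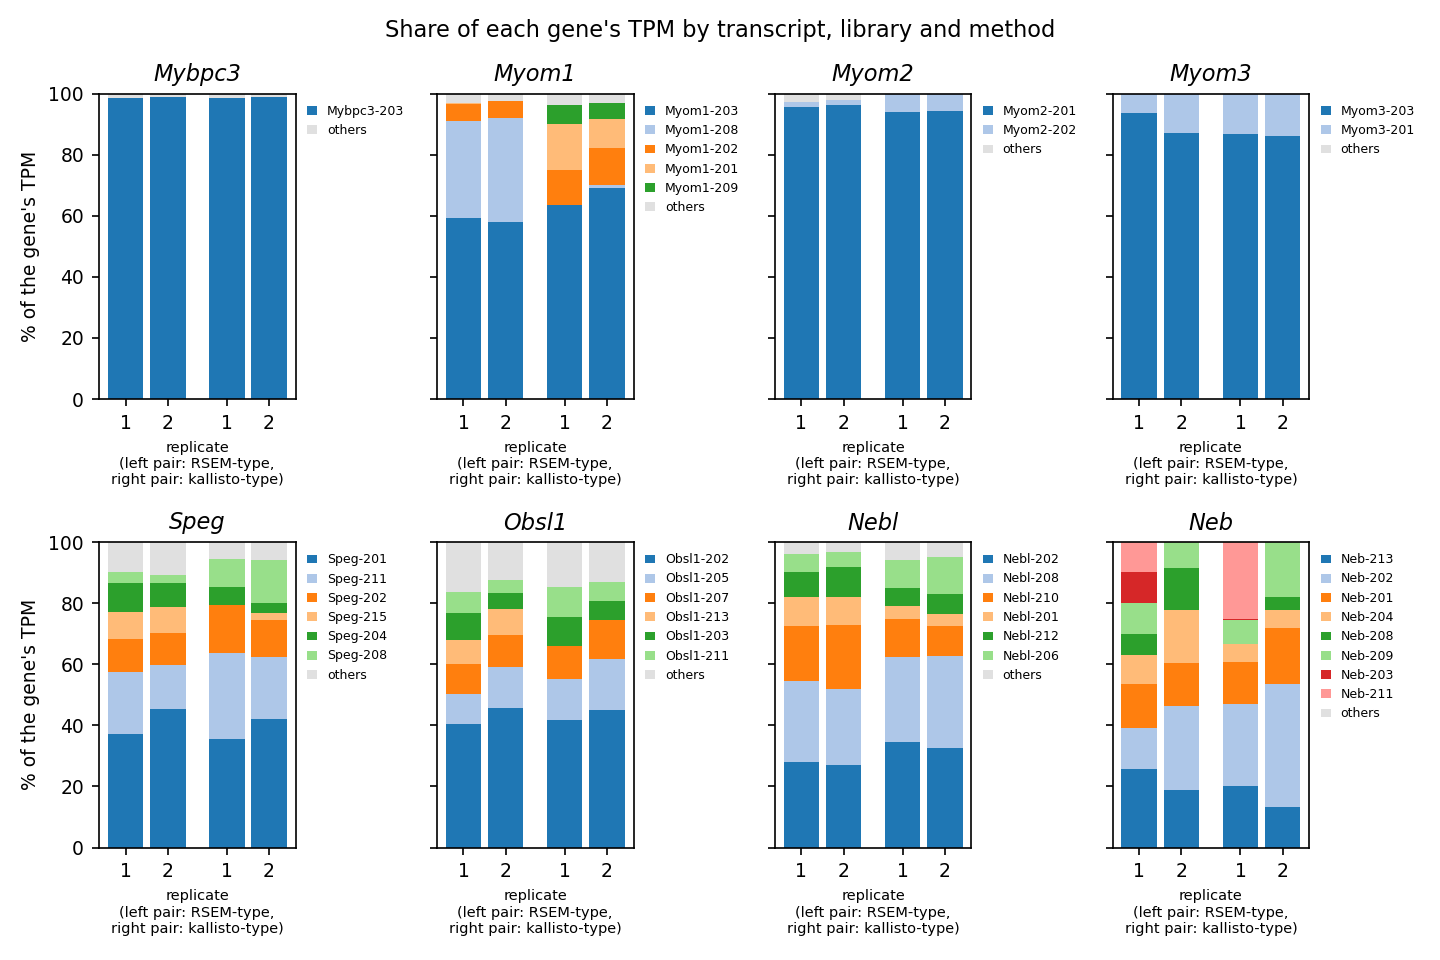
Share of each gene's TPM (%) held by each named transcript in replicates 1 and 2, with the RSEM-type tables in the left pair of bars and the kallisto-type tables in the right pair; grey is all other transcripts. The left and right pairs are alike for Mybpc3 and Myom2, and differ for Myom1, where Myom1-208 holds 31.8% and 33.8% on the left.

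The 8 genes were then compared between the 2 animals. The exact binomial test on rounded counts compares these 2 libraries and not conditions. Calls needed a Benjamini-Hochberg adjusted p under 0.05 together with at least a 2-fold difference. Of the 8 genes 0 were called, against 209 of 16517 genes tested, or 1.27% (0.611% higher and 0.654% lower in replicate 2). At any fold, 5 of the 8 had an adjusted p under 0.05, against 17.3% of all genes tested. With DESeq2 size factors or total counts in place of TMM sizes it was 4, without Myom1. Of the 5, Mybpc3, Myom1, Nebl and Obsl1 were higher in replicate 2 (9.96% of all genes) and Myom2 was lower (7.33% of all genes). The lowest of the 5, Obsl1, had 7236 and 7736 counts, and at such counts small differences pass the test.

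Myom2 differed most. With 59666 counts in replicate 1 and 47747 in replicate 2, its log2 ratio was -0.28 with a counting SE of 0.0089 (adjusted p = 2.96e-220, exact binomial test). Of 12838 genes above 1 TPM in both libraries, 13.1% had a larger absolute ratio, and of the 706 other genes above 100 TPM in both, 8.07% had. The kallisto-type tables gave the same direction, with 456.8 and 371.1 TPM. Myom1, which stands beside it in the order of levels, had a log2 ratio of 0.036 with a counting SE of 0.0091 (adjusted p = 9.27e-04), and this was the smallest difference of the 5. Its adjusted p was 0.088 with DESeq2 size factors and 0.24 with total counts in the same exact binomial test. The log2 ratio was 0.14 for Obsl1, 0.11 for Nebl and 0.078 for Mybpc3. Speg had a ratio of 0.0082 (adjusted p = 0.904, exact binomial test), Neb 0.27 (adjusted p = 0.202) and Myom3 0.19 (adjusted p = 0.902), and the last 2 rest on few counts. The atrial, red cell and fat markers named above differed between the same 2 libraries, and their part in the Myom2 difference was not tested.

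**Figure D4:**
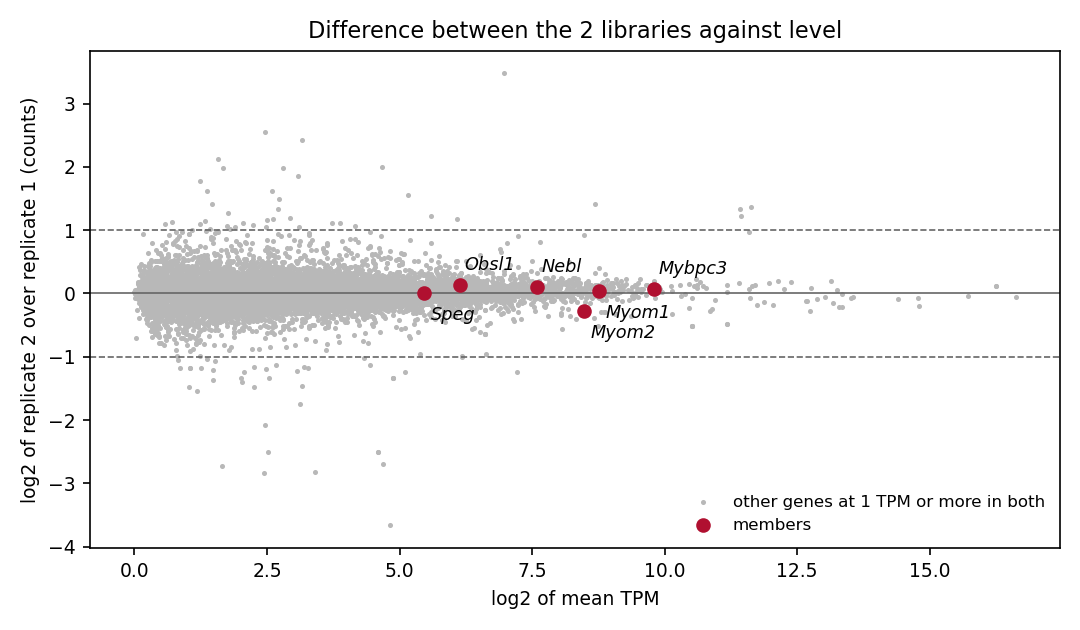
log2 ratio of replicate 2 over replicate 1 (scaled counts) against log2 mean TPM for 12838 genes above 1 TPM in both libraries, with the 6 of the 8 genes that pass in red and dashed lines at 2-fold. Myom2 lies at -0.28 and the other 5 between 0.0082 and 0.14, all inside the 2-fold lines.

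Genes with known roles beside the 8 were read as 3 lists. Of 24 genes of the M-band and thick filament, 21 were above 1 TPM in both libraries, with medians over the list of 84.6 and 76.5 TPM, against 10.4 TPM over all detected genes in each library. The highest were Myh6, the main myosin heavy chain of the mouse heart after birth, at 8417 and 9608 TPM, the creatine kinase gene Ckm at 1356 and 1477 TPM, titin (Ttn) at 965.2 and 947.8 TPM, and Myh7, the fetal-type heavy chain, at 749.4 and 860.1 TPM. Of the 21 genes of this list that were tested, 13 were higher and 3 lower in replicate 2 at an adjusted p under 0.05, against 9.96% and 7.33% of all genes. At 2-fold 0 were called, against 1.27% of all. Smaller differences pass the test at higher counts, so the share over all genes is not a like background for this abundant list or the next 2. The median log2 ratio of its detected genes was 0.086, against 0.0078 over all detected genes. Mybpc3, at 873.7 and 914.6 TPM, lay between Ttn and Myh7 in both libraries by these tables. The kallisto-type tables gave Myh7 1743 and 1950 TPM, above Mybpc3 at 1028 and 1063 TPM, and Ttn 1025 and 984.1 TPM, below it, so the order of the 3 genes cannot be given.

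Of 22 genes that set thin filament length or belong to the nebulin family, 20 were above 1 TPM in both libraries, with medians of 58.0 and 50.4 TPM. Actc1, the cardiac actin gene, led with 6734 and 7108 TPM, followed by tropomyosin Tpm1 at 3807 and 4242 TPM. Cofilin-2 (Cfl2), which severs actin filaments, was at 187.7 and 168.3 TPM, and the capping protein gene Capzb was at 158.8 and 175.8 TPM. Nebl, at 184.1 and 202.5 TPM, lay near these last 2. By the kallisto-type tables Cfl2 was at 398.4 and 358.5 TPM, above Nebl at 211.8 and 235.4 TPM. In this list 7 of 22 genes were higher and 5 lower at any fold, against 9.96% and 7.33% of all genes, and 0 were called, against 1.27%. The median log2 ratio of its detected genes was -0.019.

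All 18 genes listed as partners of SPEG, OBSL1 or a related protein were above 1 TPM in both libraries, with medians of 103 and 99.5 TPM. The calcium pump gene Atp2a2 led with 3206 and 3494 TPM, followed by Pde4dip, which encodes the scaffold myomegalin, at 488.7 and 542.8 TPM, sarcalumenin (Srl), a calcium-binding protein of the sarcoplasmic reticulum, at 435.9 and 470.9 TPM, and Des. By the kallisto-type tables the order of the last 3 was reversed, with Des at 662.2 and 692.5 TPM, Srl at 566.6 and 628.1 TPM and Pde4dip at 370.9 and 424.4 TPM. Ryr2, the calcium release channel gene, followed in the RSEM-type tables at 311.8 and 349.2 TPM. It and the next 3 genes, from the lower part of the list, are named after their values were seen. Cul7 and Ccdc8, which form the 3M complex with OBSL1, were at 25.1 and 22.6 TPM and at 7.27 and 6.62 TPM. Mtm1, which encodes the lipid phosphatase myotubularin that SPEG binds, was at 7.43 and 7.84 TPM. In this list 9 of 18 genes were higher and 1 lower at any fold, against 9.96% and 7.33% of all genes, and 0 were called, against 1.27%. The median log2 ratio of its detected genes was 0.091.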

How the data were processed

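Total RNA of 2 female hearts was measured, 1 library each, with 40403041 and 39849597 expected counts. Per the text deposited with the files, the authors used assembly mm10 and annotation M21, while tools and versions were not given in the sources used here. Files deposited by the authors hold expected counts per gene and transcript, in which reads that fit several features are shared. The deposited TPM are scaled over all entries, spike-ins included, and the deposited percent columns give each transcript's share of its gene's TPM. RSEM and kallisto are named from the file headers only. Effective length was 99 nt under length in the RSEM-type tables and 333 and 329 nt under it in the kallisto-type tables, which gives a count on a short transcript more weight in the latter. Spike-ins and entries that name no annotated gene, with 0.541% and 0.575% of the counts, entered neither the tests nor the library totals. Reads of both parental genomes were counted on mm10, which is C57BL/6J.

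The 8 genes and the lists were chosen with earlier results of these data known. Levels carry no test, as 2 libraries allow no exact p under 0.5. Pair ratios used log2(TPM + 0.1). Between the libraries, expected counts were rounded and compared by a two-sided exact conditional binomial test with TMM sizes (edgeR 4.0.16, R 4.3.3) and Benjamini-Hochberg adjustment over the 16517 annotated genes whose counts summed to at least 20, and fold changes used a prior count of 0.5. The edgeR quasi-likelihood test could not be fitted, because no residual degrees of freedom remain. The binomial test was tested on simulated data that held counting error only, as the test assumes. With no spread between animals in it, the simulation cannot show how the test behaves between 2 hearts. P-values measure the counting of these 2 libraries only. Named were the 8 genes, the 4 highest genes of each list and any called gene, the genes of the pairs compared (1 list gene and its pairs are not reported here), and transcripts with at least 5% of a gene's TPM. DESeq2 1.42.0 size factors were an alternative. Transcript sequences and positions came from GENCODE M21, and promoters from RefSeq (GRCm38.p6). The other software was Python 3.11.15, scipy 1.17.1, numpy 2.4.6, matplotlib 3.10.9 and pandas 2.3.3.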

Additional observations from a re-analysis of the deposited data

How the results depend on the processing

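Of 291 values recomputed for 50 results, 227 kept their direction, call or size. For levels, ratios and shares, a value with 1 library left out was compared with the mean by the SD. With 2 libraries each value always lies within 1 SD of the mean, so these values are among the 227 by construction and do not measure stability. With counts in place of TPM, the log2 ratio of Obsl1 to Speg turned to -0.23, that of Myom1 to Myom2 to -0.078 and that of Nrap to Nebl to 0.032, since counts are not corrected for length. The kallisto-type tables gave -0.074 for Myom1 to Myom2. Full-length coding transcripts only, an alternative chosen after seeing the data, gave 0.24 for Obsl1 to Speg, which was then not apart, and -0.29 for Myom1 to Myom2. The share of full-length Myom1 TPM with the cassette exon was 13.0% by the kallisto-type tables, 9.21% by counts and 8.26% by posterior mean TPM. The share with the upstream 23-nt exon was 13.7% and 1.35% by the first and the last of these. The share of long coding Speg TPM in Speg-201 was 61.5% by the kallisto-type tables. The cause was not tested. Between the libraries, 453 genes passed at 1.5-fold and 2856 with no fold threshold, of which 0 and 5 were among the 8. Myom1 lost its adjusted p under 0.05 with DESeq2 size factors (0.088) and with total counts (0.24), and the log2 ratio of Speg turned to -0.0061 and -0.011. Leaving out either library changed no direction: with 1 library alone the log2 ratio of Myom1 to Myom2 was 0.11 to 0.47 and that of Obsl1 to Speg 0.61 to 0.75. For pairs read as apart, the rule itself already requires the same sign in both libraries. No paired analysis was possible because there is 1 group. Neb and Myom3 rest on 26 to 239 counts a library, too few to give transcript levels.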
